A study of Mus musculus with 4 samples.

Results

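The 10 genes described here mark astrocytes, the star-shaped glia that take up transmitter, buffer water and ions and feed neurons. They are Gfap, Aqp4, Aldh1l1, Slc1a2, Slc1a3, S100b, Gja1, Gjb6, Aldoc and Glul, taken by gene symbol from the tables of all 4 libraries, out of 18492 genes listed in any library. Hippocampal RNA of C57BL/6 mice, 6 months old, was sequenced as a single library for each of 4 genotypes: Ogg1-/- (Ogg1 KO), Mutyh-/- (Mutyh KO), the knockout of both genes (DKO, written Ogg-/- Mutyh-/- in its genotype label) and wild type (WT). Ogg1 encodes the glycosylase that cuts out 8-oxoguanine opposite cytosine, and Mutyh the one that cuts out adenine opposite 8-oxoguanine. The labels name no other allele or agent, and they give neither the number of animals behind a library nor their sex. The question of the design is how hippocampal transcripts stand when either glycosylase or both are missing. With 1 library per genotype no difference below has a replicate check, no p-value is given, and each comparison is one of libraries.

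Astrocytes line synapses and blood vessels. Their glutamate transporters clear the transmitter after release, glutamine synthetase turns it into glutamine for return to neurons, connexins join the cells into a network, and the water channel Aqp4 sits in the endfeet that wrap vessels. The intermediate filament Gfap is known to increase when astrocytes react to injury, and the hippocampus is among the brain regions where it is abundant.

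The libraries held 17.02 M (Ogg1 KO), 17.15 M (Mutyh KO), 18.20 M (DKO) and 18.12 M (WT) unique reads in genes (M, mega). Reads of Ogg1 numbered 130 in Ogg1 KO, 81 in Mutyh KO, 103 in DKO and 94 in WT, so its total ran against the labels Ogg1 KO and DKO, while reads covered 47.2% and 46.4% of its length there, against 81.5% in Mutyh KO and 86.7% in WT. Mutyh had 15 reads in Mutyh KO and 20 in DKO, against 35 in Ogg1 KO and 39 in WT. Xist, the RNA of the inactive X chromosome, had 10307 reads in Mutyh KO and 14 to 29 in the other libraries, and the Y-linked gene Ddx3y had 289 reads in Mutyh KO and 724 to 884 in the others. In every comparison with the Mutyh KO library below, this difference cannot be told apart from genotype. Neuronal markers (14 genes) took 1.53%, 1.49%, 1.51% and 1.59% of reads in Ogg1 KO, Mutyh KO, DKO and WT, and 8 genes of hippocampal neurons, a list written after the tables were seen, 0.0860%, 0.0933%, 0.0994% and 0.102%. All 18 choroid plexus markers were above WT in every knockout library, with 0.515% of reads in Ogg1 KO, 0.533% in Mutyh KO, 0.267% in DKO and 0.0571% in WT. None of those 18 was at 0 in any library. Ribosomal RNA genes took 0.352% of reads in Ogg1 KO, 1.37% in Mutyh KO, 1.48% in DKO and 0.733% in WT. What part such tissue differences have in the values below was not tested.

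The gene IDs of the 10 in the tables were 14645 (Glul), 11676 (Aldoc), 20511 (Slc1a2), 20512 (Slc1a3), 14580 (Gfap), 14609 (Gja1), 20203 (S100b), 11829 (Aqp4), 14623 (Gjb6) and 107747 (Aldh1l1). All 10 astrocyte genes were detected in every library, with coverage of 93.9% to 99.9% of their length and between 638 and 79642 reads. Together they took 0.771% of reads in Ogg1 KO, 0.843% in Mutyh KO, 0.840% in DKO and 0.781% in WT. Per length, in RPKM (reads per kilobase of gene, scaled to library size), their sum was 1751 in Ogg1 KO, 1880 in Mutyh KO, 1875 in DKO and 1900 in WT. Slc1a2, the longest of the 10 at 11571 bases, gave the most reads in every library, and its length weighs on the share of reads and not on the RPKM sum. The RPKM sum is in turn weighted toward Glul (685 RPKM in WT) and Aldoc (403 RPKM in WT), both highest in WT. In bulk tissue, fewer astrocytes and less RNA per astrocyte cannot be told apart.

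By mean RPKM over the 4 libraries the order was Glul (619 ± 46.8, SD over the 4 genotypes), Aldoc (368 ± 24.6), Slc1a2 (349 ± 34.03), Slc1a3 (160.2 ± 4.78), Gfap (145 ± 14.6), Gja1 (77.1 ± 1.82), S100b (58.8 ± 9.85), Aqp4 (39.1 ± 3.61), Gjb6 (19.4 ± 1.17) and Aldh1l1 (15.3 ± 1.04). Neighbours in that order did not overlap between libraries, except that Aldoc overlapped Slc1a2 and Slc1a3 overlapped Gfap. The quotient of the highest and the lowest library ranged from 1.05 for Gja1 to 1.502 for S100b, with a median of 1.17, against 1.19 over the 13186 genes compared (those with a mean of at least 1 RPKM) and 1.14 over the 6574 of them with at least 10 RPKM. It reached the limit used below (0.32 on the log2 scale) for S100b and Gfap, 2 of the 10, where 33.9% of the genes compared and 16.1% of those with at least 10 RPKM did so.

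**Figure D1:**
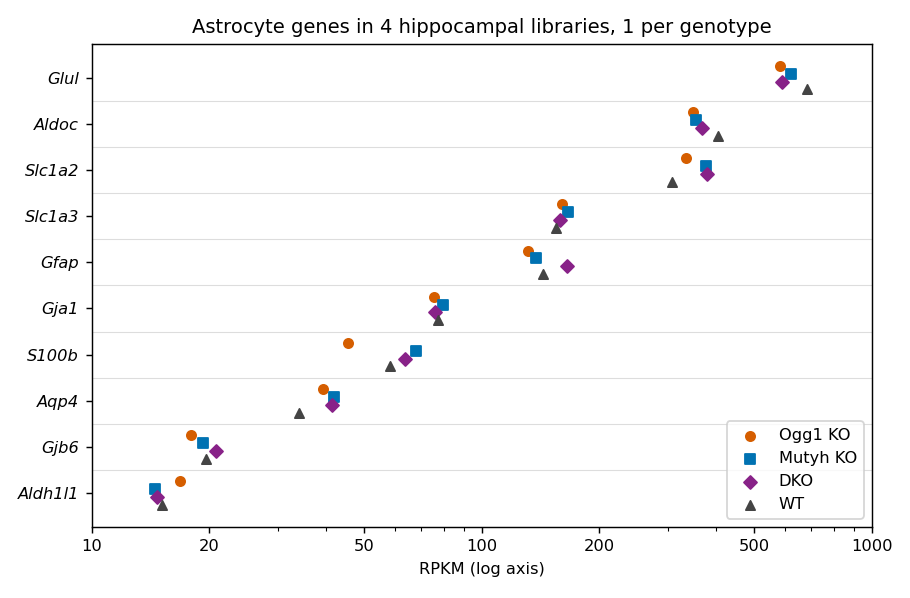
RPKM on a log axis for the 10 astrocyte genes in the libraries of Ogg1 KO, Mutyh KO, DKO and WT mice, 1 point per library. The symbols of a gene lie close together beside the distance between genes, and S100b, from 45.3 RPKM in Ogg1 KO to 68.1 RPKM in Mutyh KO, has the widest spread.

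A gene was counted as apart between 2 libraries when the log2 ratio of RPKM plus 1 was at least 0.32 in size. Against WT, 1 of the 10 genes passed for Ogg1 KO (S100b, lower), 0 for Mutyh KO and 0 for DKO. Among all genes compared the same limit was passed by 10.4% for Ogg1 KO, 10.2% for Mutyh KO and 8.42% for DKO, and among genes with at least 10 RPKM by 6.51%, 4.53% and 3.71%. The median log2 ratio of the 10 genes was -0.08 for Ogg1 KO, 0.01 for Mutyh KO and 0.06 for DKO, beside 0.02, 0.01 and -0.00 over all genes compared. Each fold below divides the shares of library reads that a gene took; its exact 95% interval covers counting error only. Such intervals excluded 1 for 8 of the 10 genes for Ogg1 KO, 7 for Mutyh KO and 6 for DKO. They did so for 37.5%, 36.2% and 33.4% of all genes compared and for 48.3%, 44.3% and 41.9% of those with at least 10 RPKM. An interval narrows as reads grow, and the 10 genes have many reads, so nothing is read from these counts.

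**Figure D2:**
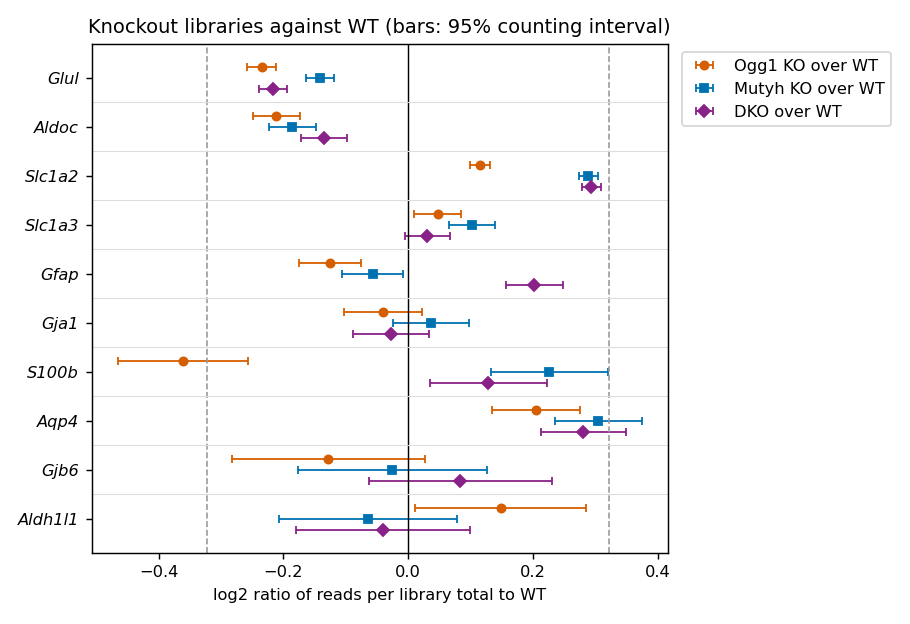
Log2 ratio to WT of reads per library total for each astrocyte gene, with 95% counting intervals; dashed lines mark the limit of 0.32. Glul and Aldoc lie left of 0 and Aqp4, Slc1a2 and Slc1a3 right of it in all 3 knockout libraries, and S100b in Ogg1 KO, at 0.779-fold, is the only point past a dashed line.

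S100b, a calcium-binding protein that astrocytes and some oligodendrocytes make, varied most. It had 1293 reads (45.3 RPKM) in Ogg1 KO, 1956 (68.1 RPKM) in Mutyh KO, 1940 (63.6 RPKM) in DKO and 1767 (58.2 RPKM) in WT. The Ogg1 KO library stood lowest, and Mutyh KO and DKO lay above WT. The fold to WT was 0.779 (0.724 to 0.837) for Ogg1 KO, 1.17 (1.096 to 1.248) for Mutyh KO and 1.09 (1.02 to 1.17) for DKO. Values lower in Ogg1 KO by at least the limit were found for 3.57% of the genes compared. DKO was 1.403-fold Ogg1 KO (1.31 to 1.51). The 14 oligodendrocyte markers, whose cells can also make S100b, held 0.543% of reads in Ogg1 KO, 0.561% in Mutyh KO, 0.496% in DKO and 0.485% in WT, with 10, 12 and 9 above WT and none at 0, and their part in S100b was not tested. S100a1, another member of the S100 family, had 51.6 RPKM in Ogg1 KO, 73.3 in Mutyh KO, 69.3 in DKO and 63.4 in WT, the same order of libraries. The quotient of S100b and S100a1 was 0.879 in Ogg1 KO, 0.929 in Mutyh KO, 0.917 in DKO and 0.918 in WT.

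Gfap, the filament protein, had 6128 reads (132 RPKM) in Ogg1 KO, 6472 (138 RPKM) in Mutyh KO, 8221 (165 RPKM) in DKO and 7112 (144 RPKM) in WT. Only the DKO library lay above WT. Its fold to WT was 0.917 (0.886 to 0.949) for Ogg1 KO, 0.962 (0.9296 to 0.995) for Mutyh KO and 1.15 (1.11 to 1.19) for DKO. Against the single knockouts DKO was 1.255-fold Ogg1 KO (1.21 to 1.30) and 1.20-fold Mutyh KO (1.16 to 1.24). Vim, the filament protein vimentin, which reactive astrocytes share with other glia and with vessels, had 29.2 RPKM in Ogg1 KO, 33.5 in Mutyh KO, 32.7 in DKO and 32.5 in WT. The log2 ratios to WT of Nes (nestin) were 0.08 for Ogg1 KO, 0.07 for Mutyh KO and 0.29 for DKO, those of Synm (synemin) -0.21, 0.15 and 0.08, and those of Des (desmin, of muscle and mural cells) -0.23, -0.10 and 0.09. None of the 5 filament genes compared passed the limit against WT in any knockout library. Among all genes compared 10.4% (Ogg1 KO), 10.2% (Mutyh KO) and 8.42% (DKO) passed it. By shares of reads Nes was 1.30-fold WT in DKO (1.12 to 1.52), and the added 1 RPKM kept it short of the limit.

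Of the glutamate transporters, Slc1a2 (GLT-1), which carries most of the uptake in the forebrain, had 65844 reads (334 RPKM) in Ogg1 KO, 74765 (377 RPKM) in Mutyh KO, 79642 (378 RPKM) in DKO and 64691 (309 RPKM) in WT. Both libraries without Mutyh stood above both with it. The fold to WT was 1.08 (1.07 to 1.095) for Ogg1 KO, 1.22 (1.21 to 1.23) for Mutyh KO and 1.23 (1.21 to 1.24) for DKO. Slc1a3 (GLAST), the transporter shared with radial glia, had 11507 reads (160.4 RPKM) in Ogg1 KO, 12039 (167 RPKM) in Mutyh KO, 12165 (159 RPKM) in DKO and 11852 (155 RPKM) in WT. It stayed within 1.07-fold of WT in each knockout library. The quotient of Slc1a2 and Slc1a3 within a library, which no scaling changes, was 2.08 in Ogg1 KO, 2.26 in Mutyh KO, 2.38 in DKO and 1.99 in WT. Neuronal Slc1a1 had 45.8, 46.7 and 48.4 RPKM for Ogg1 KO, Mutyh KO and DKO, against 49.1 in WT, and Slc1a6, known from Purkinje cells, was at 0.555-fold (0.430 to 0.712) in Ogg1 KO with 98 reads, against 188 in WT. The neutral amino acid transporters of the same family were Slc1a4, with 17.1, 18.7 and 20.4 RPKM for Ogg1 KO, Mutyh KO and DKO, against 20.3 in WT, and Slc1a5, which passed the limit upward in DKO on 65 reads, against 40 in WT.

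Glul, glutamine synthetase, had 27551 reads (582 RPKM) in Ogg1 KO, 29604 (621 RPKM) in Mutyh KO, 29847 (589 RPKM) in DKO and 34504 (685 RPKM) in WT. WT was the highest library. The fold to WT was 0.850 (0.836 to 0.863) for Ogg1 KO, 0.907 (0.893 to 0.921) for Mutyh KO and 0.861 (0.848 to 0.874) for DKO. Slc1a2 lay on the other side of WT, and the quotient of Glul and Slc1a2 was 1.74 in Ogg1 KO, 1.65 in Mutyh KO, 1.56 in DKO and 2.22 in WT. This quotient was added after the data were seen and restates the folds of both genes to WT. Among 10 further genes of glutamate and glutamine handling, 1 (10%) passed the limit upward in each knockout library against WT. Among all genes compared 6.87% (Ogg1 KO), 8.24% (Mutyh KO) and 5.87% (DKO) did so. It was Slc38a3, which exports glutamine from astrocytes. Slc38a3 had 43.3 RPKM in Ogg1 KO, 41.6 in Mutyh KO, 35.7 in DKO and 27.1 in WT. Choroid plexus markers were likewise highest in the single knockouts and lowest in WT, and their part in Slc38a3 was not tested. Glud1, glutamate dehydrogenase, stayed within 1.14-fold across the libraries.

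The 300-base windows around the RefSeq start sites (250 bases before to 50 after, build GRCm38.p6) are shown for S100b and Gfap, the genes with the widest spread, and for Slc1a2 and Glul, which lay on opposite sides of WT. Windows were read for 9 of the 10 genes. Capitals mark CCAAT, the motif TTGGC (read by nuclear factor I, which drives astrocyte genes) and the STAT motif TTCNNNGAA, each searched on both strands; CCAAT and TTGGC overlap where GCCAAT is read on either strand.
S100b, chr10:76253586-76253885, plus strand: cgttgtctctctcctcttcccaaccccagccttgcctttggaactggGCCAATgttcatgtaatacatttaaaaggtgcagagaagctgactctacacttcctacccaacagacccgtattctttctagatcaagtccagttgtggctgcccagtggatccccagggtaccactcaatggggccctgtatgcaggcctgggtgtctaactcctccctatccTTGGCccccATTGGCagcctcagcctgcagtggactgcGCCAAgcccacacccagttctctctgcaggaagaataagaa
Gfap, chr11:102897151-102897450, minus strand: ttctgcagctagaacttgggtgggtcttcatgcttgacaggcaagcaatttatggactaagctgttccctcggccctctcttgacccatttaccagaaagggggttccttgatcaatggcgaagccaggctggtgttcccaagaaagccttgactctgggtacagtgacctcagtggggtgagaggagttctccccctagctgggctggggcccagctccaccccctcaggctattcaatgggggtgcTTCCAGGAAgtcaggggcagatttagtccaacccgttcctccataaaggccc
Slc1a2, chr2:102706188-102706487, plus strand: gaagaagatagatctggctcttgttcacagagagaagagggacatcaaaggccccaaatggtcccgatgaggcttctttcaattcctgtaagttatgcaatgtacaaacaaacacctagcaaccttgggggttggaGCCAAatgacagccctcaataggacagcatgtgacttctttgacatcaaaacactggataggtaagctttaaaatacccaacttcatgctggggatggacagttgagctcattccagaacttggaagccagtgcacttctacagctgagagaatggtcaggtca
Glul, chr1:153899679-153899978, plus strand: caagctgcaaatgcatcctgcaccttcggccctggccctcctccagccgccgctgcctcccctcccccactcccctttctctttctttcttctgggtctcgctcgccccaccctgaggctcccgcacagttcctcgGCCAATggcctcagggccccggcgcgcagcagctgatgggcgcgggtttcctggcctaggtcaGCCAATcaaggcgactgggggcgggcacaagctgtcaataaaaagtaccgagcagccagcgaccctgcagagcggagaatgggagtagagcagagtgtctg
S100b held CCAAT from base -202 and from base -20 and TTGGC from bases -203, -29, -19 and 10, counted from the start site with no base 0. Glul held GCCAAT from bases -114 and -51, and Slc1a2 held TTGGC from base -114. Gfap held the STAT motif across its listed start (bases -2 to 7). Of 32851 windows of the same length, 37.4% hold CCAAT, 46.7% TTGGC and 8.30% the STAT motif. Of the 10 windows of the 9 astrocyte genes, 4, 4 and 3 did. S100b and Glul both held CCAAT and TTGGC, and a link between these motifs and the levels was not tested. Nfia and Nfib, which encode nuclear factor I proteins, had log2 ratios to WT of -0.05 and -0.29 in Ogg1 KO, 0.15 and -0.02 in Mutyh KO, and 0.04 and -0.06 in DKO.

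Gja1 had the smallest spread of the 10 between libraries. This connexin 43 gene had 3985 reads (75.4 RPKM) in Ogg1 KO, 4232 (79.5 RPKM) in Mutyh KO, 4297 (76.0 RPKM) in DKO and 4360 (77.5 RPKM) in WT, and the interval of its fold to WT held 1 in each knockout library. Gjb6 (connexin 30) had 638 reads (17.98 RPKM) in Ogg1 KO, 690 (19.3 RPKM) in Mutyh KO, 790 (20.8 RPKM) in DKO and 742 (19.6 RPKM) in WT, again with each interval holding 1. Gjb2 (connexin 26), made by astrocytes and by fibroblasts of the meninges, behaved otherwise. It had 5.50 RPKM in Ogg1 KO, 5.85 in Mutyh KO, 9.12 in DKO and 4.02 in WT, and was 2.27-fold WT in DKO (1.90 to 2.73). The quotient of Gjb2 and Gjb6 was 0.306 in Ogg1 KO, 0.303 in Mutyh KO, 0.438 in DKO and 0.205 in WT. Meningeal markers took 0.108% of reads in Ogg1 KO, 0.152% in Mutyh KO, 0.148% in DKO and 0.0678% in WT, with 11, 14 and 14 of the 14 above WT and none at 0; their part in Gjb2 was not tested. Gjd2, the connexin of electrical synapses between neurons, also passed the limit upward in all 3 knockout libraries, with 89 reads in Ogg1 KO, 92 in Mutyh KO, 88 in DKO and 57 in WT. The oligodendrocyte connexins Gjb1 and Gjc3, and Gjc1 and Gja4, known from vessels, did not pass it in any, with log2 ratios from -0.12 to 0.20.

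Aqp4, the water channel, had 3384 reads (39.1 RPKM) in Ogg1 KO, 3654 (41.9 RPKM) in Mutyh KO, 3815 (41.2 RPKM) in DKO and 3126 (33.95 RPKM) in WT. WT was the lowest library. The fold to WT was 1.15 (1.097 to 1.21) for Ogg1 KO, 1.24 (1.18 to 1.30) for Mutyh KO and 1.21 (1.16 to 1.27) for DKO, all short of the limit. Ependymal cells also carry Aqp4; their 12 markers held 0.00750% of reads in Ogg1 KO, 0.00996% in Mutyh KO, 0.00639% in DKO and 0.00640% in WT, with 10, 12 and 6 of the 12 above WT and none at 0, and their part in Aqp4 was not tested. Aqp1, the water channel of the choroid plexus, was 10.8-fold WT for Ogg1 KO (7.31 to 16.5), 11.4-fold for Mutyh KO (7.75 to 17.5) and 5.72-fold for DKO (3.81 to 8.88), on 28 reads in WT. Aqp11 had 3 log2 ratios between -0.06 and 0.07. Aqp5, Aqp6, Aqp7, Aqp8 and Aqp9 fell short of the mean of 1 RPKM and were not compared.

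Of 13 genes of the endfoot complex and its surroundings, 3 (23.1%) passed the limit upward in each knockout library, where 6.87% (Ogg1 KO), 8.24% (Mutyh KO) and 5.87% (DKO) of all genes compared did, and 0 downward, where 3.57%, 1.92% and 2.55% did. In all 3 libraries they were Trpv4, Utrn and Sntb1. The median log2 ratio of the 13 was 0.010 for Ogg1 KO, -0.005 for Mutyh KO and -0.068 for DKO. Of the 13, 8, 6 and 5 were above WT and 5, 7 and 8 below. Trpv4, a cation channel that choroid plexus epithelium also expresses, was at 5.64-fold for Ogg1 KO, 6.46-fold for Mutyh KO and 3.002-fold for DKO, on 334, 385 and 190 reads, against 63 in WT. In the same order of libraries, Utrn, the dystrophin relative utrophin, had log2 ratios of 0.44, 0.46 and 0.35, and Sntb1, a syntrophin, 0.41, 0.53 and 0.34. Kcnj10, the potassium channel Kir4.1 of the endfeet, had 52.1, 51.9 and 48.8 RPKM for Ogg1 KO, Mutyh KO and DKO, against 52.02 in WT. Choroid plexus markers moved with Trpv4, as given above, and their part in it was not tested.

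The metabolic genes split. Aldoc, the brain aldolase, had 10094 reads (348 RPKM) in Ogg1 KO, 10345 (355 RPKM) in Mutyh KO, 11373 (367 RPKM) in DKO and 12435 (403 RPKM) in WT. WT was the highest library, as for Glul. The fold to WT was 0.864 (0.841 to 0.887) for Ogg1 KO, 0.879 (0.856 to 0.902) for Mutyh KO and 0.910 (0.887 to 0.934) for DKO. Aldoa, the aldolase of most tissues and of neurons, had 955 RPKM in Ogg1 KO, 871 in Mutyh KO, 876 in DKO and 933 in WT. The quotient of Aldoc and Aldoa was 0.365 in Ogg1 KO, 0.407 in Mutyh KO, 0.419 in DKO and 0.432 in WT. Aldh1l1, the folate enzyme widely used to mark astrocytes, had 887 reads (16.8 RPKM) in Ogg1 KO, 771 (14.5 RPKM) in Mutyh KO, 832 (14.8 RPKM) in DKO and 852 (15.2 RPKM) in WT. Its fold to WT was 1.11 in Ogg1 KO (1.007 to 1.22), and the intervals in Mutyh KO and DKO held 1. Its relative Aldh1l2 did not pass the limit against WT in any knockout library.

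**Figure D3:**
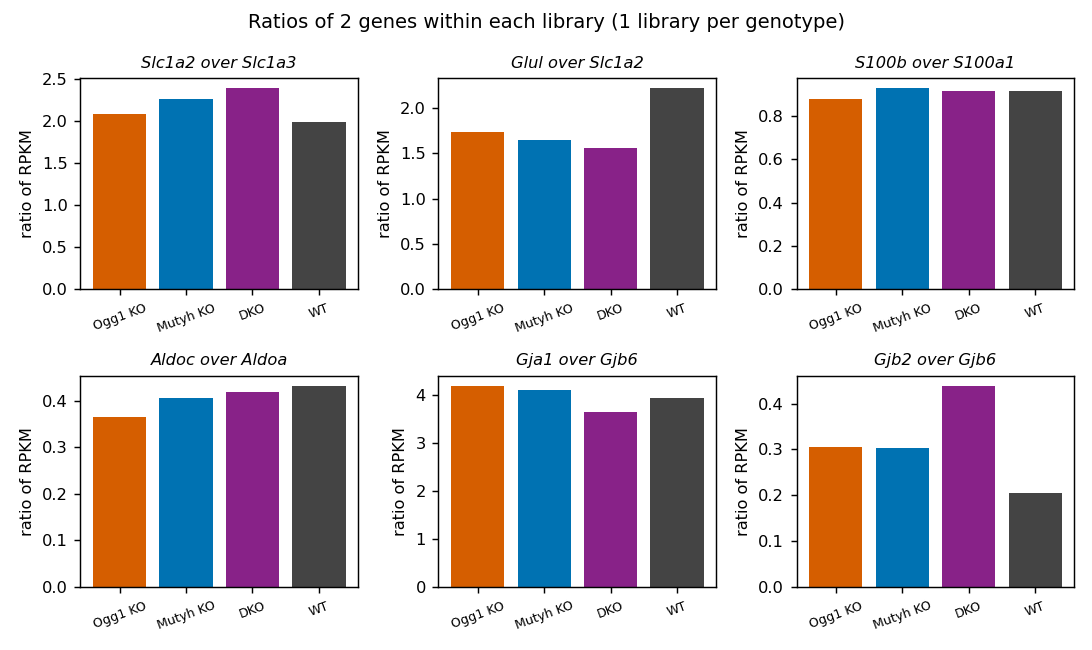
Quotients of the RPKM of 2 genes inside each library, as bars from 0 for Ogg1 KO, Mutyh KO, DKO and WT, 1 library each with no error bar. The quotient of Glul and Slc1a2 is 1.56 to 1.74 in the knockout libraries and 2.22 in WT, while that of S100b and S100a1 stays between 0.879 and 0.929. The quotients were added after the data were seen, and that of Glul and Slc1a2 restates folds that lay on opposite sides of WT.

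Seen together, all 3 knockout libraries were above WT for 3 of the 10 genes (Aqp4, Slc1a2, Slc1a3) and below it for 2 (Aldoc, Glul), shares of 30% and 20% where 30.7% and 25.9% of the genes compared lay so. These 3 comparisons share the WT library. These shares of the 10 genes lay near or below those of all genes compared.

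**Figure D4:**
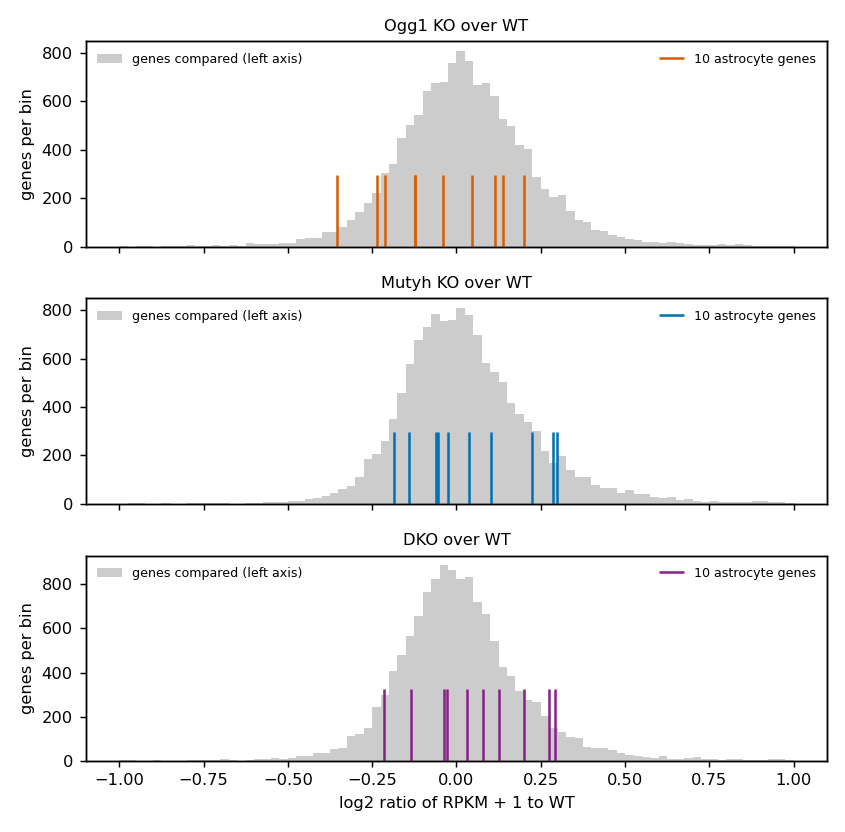
Number of genes per bin of log2 ratio of RPKM plus 1 to WT (grey, 13186 genes, with 101, 110 and 78 genes beyond the axis in Ogg1 KO, Mutyh KO and DKO) with the 10 astrocyte genes as coloured lines. The lines lie inside the bulk of the grey distribution in each panel, S100b in Ogg1 KO at -0.35 being the farthest from 0.

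DKO was also set against each single knockout. Against Ogg1 KO, 2 of the 10 genes passed the limit, both higher (S100b and Gfap), where 8.53% of the genes compared passed in either direction, 3.66% upward and 5.45% of those with at least 10 RPKM in either direction. The median log2 ratio of the 10 was 0.07, beside -0.02 over all genes compared. Gfap was just past the limit, and with a pseudocount of 5 RPKM in place of 1 S100b alone passed. Against Mutyh KO, 0 of the 10 passed, where 5.36% of the genes compared and 1.95% of those with at least 10 RPKM did, and the median was -0.01, beside -0.01.

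The design also allows the loss of 1 gene to be read in 2 backgrounds from library pairs that share no library. Loss of Mutyh came with a higher level on both backgrounds for 4 of the 10 genes, a lower one for 1 and opposite signs for 5. Such signs were not counted over all genes compared, so nothing is read from these counts or from those for Ogg1 below. For S100b the log2 differences were 0.22 where Ogg1 was kept and 0.48 where it was lost, and for Slc1a2 0.29 and 0.18. Gfap turned, at -0.06 and 0.33. Loss of Ogg1 came with a higher level on both backgrounds for 2 genes, a lower one for 3 and opposite signs for 5. S100b stood at -0.35 where Mutyh was kept and -0.10 where it was lost, Glul at -0.23 and -0.07, and Gfap at -0.12 and 0.26.

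In a grouping added after the data were seen, the 2 libraries without Mutyh lay wholly above the 2 with it for 3 of the 10 genes (S100b, Slc1a2, Aqp4) and wholly below for 1 (Aldh1l1), where 18.3% and 19.6% of the genes compared did so. S100b had 63.6 and 68.1 RPKM without Mutyh, against 45.3 and 58.2 RPKM with it, a mean difference of 0.35 on the log2 scale. For Ogg1 the 2 libraries without it lay wholly above those with it for 0 genes and wholly below for 2 (Gja1, Glul), where 13.3% and 14.4% of the genes compared did so. Glul had 582 and 589 RPKM without Ogg1, against 621 and 685 RPKM with it. The 2 libraries of a pair are different genotypes, not replicates. The pair without Mutyh also includes the Mutyh KO library, whose Xist and Ddx3y reads set it apart from the others.

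The DKO ratio to WT was further set against the sum of both single-knockout log2 ratios. Gfap alone among the 10 departed from that sum past the limit, by 0.38, where 18.4% of the genes compared departed that far. S100b and Aldoc departed by 0.26, Gjb6 by 0.23 and Aqp4 by -0.22, and 5 of the 10 departures were above 0. The median was 0.07, beside -0.03 over all genes compared. All 3 ratios in that sum contain the WT library.

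A wider list of 74 astrocyte genes, all of them compared, placed the 10 in context. In Ogg1 KO 7 were above WT by at least the limit and 0 below, in Mutyh KO 7 and 0, and in DKO 4 and 1. Upward shares of 9.46%, 9.46% and 5.41% stood beside 6.87%, 8.24% and 5.87% of all genes compared, and downward shares of 0%, 0% and 1.35% beside 3.57%, 1.92% and 2.55%. Among genes with at least 10 RPKM, 6.51%, 4.53% and 3.71% passed in either direction. The medians were -0.01 for Ogg1 KO, 0.00 for Mutyh KO and -0.06 for DKO.

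Among the genes furthest from WT, Fabp7, a fatty acid binding protein of radial glia and astrocytes, was above it in all 3 knockout libraries, with 201 reads in Ogg1 KO, 205 in Mutyh KO, 265 in DKO and 139 in WT. Its fold was 1.54 (1.23 to 1.92) for Ogg1 KO, 1.56 (1.2504 to 1.95) for Mutyh KO and 1.90 (1.54 to 2.35) for DKO. Slco1c1, a thyroid hormone transporter that vessels and choroid plexus also carry, was at 1.55-fold for Ogg1 KO, 1.64-fold for Mutyh KO and 1.21-fold for DKO. Slc25a18, a mitochondrial glutamate carrier, was at 0.797-fold (0.715 to 0.887) in Mutyh KO and Gldc, the glycine decarboxylase, at 0.813-fold (0.734 to 0.901). Both fell short of the limit. In Ogg1 KO and DKO, Slc25a18 was at 1.15-fold and 1.03-fold, and Gldc at 0.953-fold and 0.998-fold. In DKO, Mt3, the brain metallothionein, was at 0.772-fold (0.735 to 0.810) and Cyp4f15, short of the limit, at 0.818-fold. Slc7a11, the cystine-glutamate exchanger, had 8.19 RPKM in DKO, against 5.73 in WT, and was named after its values were seen. Endothelial and mural markers took 0.0502% of reads in Ogg1 KO, 0.0513% in Mutyh KO, 0.0543% in DKO and 0.0452% in WT, with 10, 14 and 13 of 16 above WT and none at 0, and their part was not tested.

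Genes known from reactive astrocytes were counted on 3 lists, to be read beside the 6.87% (Ogg1 KO), 8.24% (Mutyh KO) and 5.87% (DKO) of all genes compared that passed the limit upward and the 3.57%, 1.92% and 2.55% that passed it downward. Of the shared reactive genes 9 of 12 were compared, and 0 were above and 2 below the limit for Ogg1 KO, 1 and 2 for Mutyh KO and 2 and 2 for DKO. With 9 genes, 1 gene is 11.1% of the list. The list went both ways, with log2 ratios to WT from -1.96 to 0.23 for Ogg1 KO, -0.94 to 0.46 for Mutyh KO and -1.69 to 0.60 for DKO. Lcn2, an iron-carrier protein, had 3 reads in Ogg1 KO, 21 in Mutyh KO, 7 in DKO and 57 in WT. Hspb1, a small heat shock protein, was at 0.735-fold for Ogg1 KO, 0.654-fold for Mutyh KO and 0.578-fold for DKO. Of the A1 genes, named from toxin-induced inflammation, 12 of 13 were compared, and 4, 4 and 5 (33.3%, 33.3% and 41.7%) were above the limit in Ogg1 KO, Mutyh KO and DKO, with 2, 0 and 0 below. Serping1, the complement inhibitor, had 264, 266 and 401 reads, against 207 in WT, and was 1.93-fold WT in DKO (1.63 to 2.29). Srgn, a proteoglycan of blood and vessel cells, was at 1.70-fold for Ogg1 KO, 1.71-fold for Mutyh KO and 1.35-fold for DKO. C3, the complement component, had 64 reads in Ogg1 KO, against 197 in WT (0.346-fold, 0.257 to 0.461). In Mutyh KO and DKO no A1 gene, C3 included, passed the limit downward. Psmb8, an immunoproteasome subunit, was at 0.690-fold in Ogg1 KO with an interval that held 1 (0.438 to 1.07). Of the A2 genes, named from ischaemia, 7 of 12 were compared, with 1, 0 and 2 (14.3%, 0% and 28.6%) above the limit and 0 below in any knockout library. Several of these genes are also made by vessel, meningeal, blood or immune cells. Meningeal and vessel markers differed as given above. Blood markers took 0.00734% of reads in Ogg1 KO, 0.0126% in Mutyh KO, 0.00573% in DKO and 0.00365% in WT, and all 5 that were compared passed the limit upward in every knockout library; of the 6 listed, 1 was at 0 in Ogg1 KO and 1 in DKO. The part of these cells in the reactive lists was not tested.

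**Figure D5:**
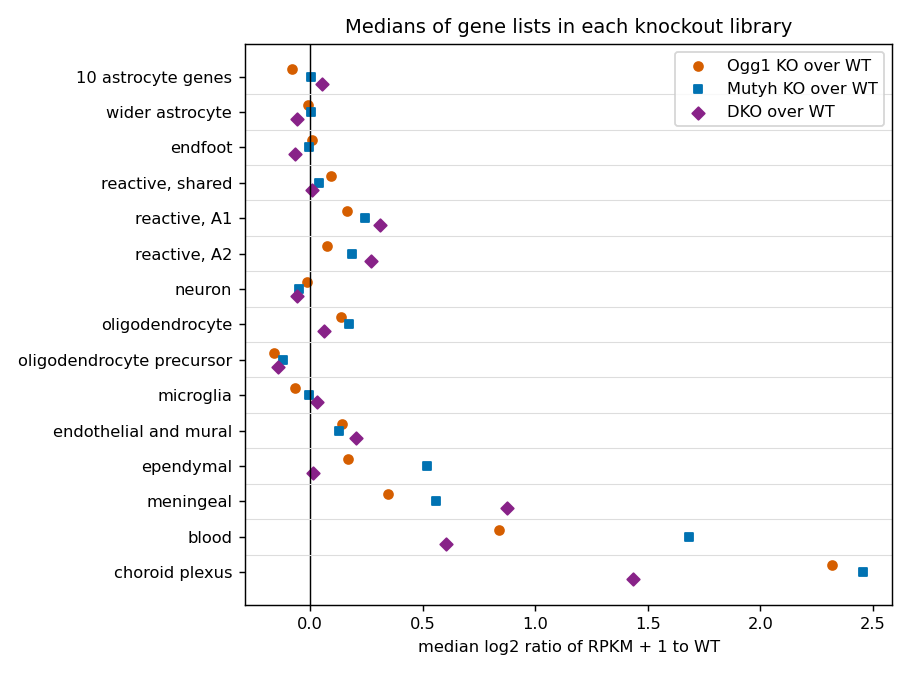
Median log2 ratio of RPKM plus 1 to WT for the 10 astrocyte genes, the wider astrocyte lists and markers of other cells, 1 symbol per knockout library. The 10 genes, at -0.08, 0.01 and 0.06, lie at the zero line with neurons and microglia, while choroid plexus markers reach 2.32, 2.46 and 1.43.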

How the data were processed

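Per the file headers, the authors deposited for each gene a count of unique reads, a length, the percent of that length covered by reads, and RPKM. The deposited RPKM values matched count over length over the header's total, and the counts summed to that total. A gene missing from a library's table was set to 0. Per the submitters' processing notes the build was mm9; the aligner, the counting program, the annotation and strandedness are not given in the sources used here, so reads of overlapping or near-identical genes cannot be told apart. Per the labels' protocols, an RNeasy kit and standard Illumina library preparation were used.

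Differences were log2 ratios after adding 1 RPKM, over genes with a mean of at least 1 RPKM, with 0.32 on the log2 scale as the limit. Folds were ratios of reads per library total with exact conditional 95% intervals, which reflect counting error alone. No model was fitted and no test was run, since no genotype has a second library. Alternatives changed the scaling (TMM from edgeR 4.0.16, median-of-ratios factors from DESeq2 1.42.0), the pseudocount, the filter and the limit. Python 3.11.15, numpy 2.4.6, pandas 2.3.3, scipy 1.17.1 and matplotlib 3.10.9 were used, and the calculation was tested on simulated counts. All 10 astrocyte genes were named, with the 4 highest and the 4 lowest of the wider astrocyte, endfoot and reactive lists in each knockout against WT and the compared genes of their families, a few of which are not reported here. Kcnj10, Utrn, Sntb1, Nfia, Nfib, Glud1, Slc38a3, Slc7a10, Ezr and Sox9 were named after their values were seen. The hippocampal neuron list, the library pairs and the within-library quotients were added after the data were seen. The 10 genes and the lists were chosen with earlier results of these data known. Start-site windows came from RefSeq, build GRCm38.p6, matched by gene ID; coordinates from that build were not set beside the mm9 tables.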

Additional observations from a re-analysis of the deposited data

Results flagged for a closer look

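With 1 library per genotype no group is large enough to look for a single far library, and none of the 10 astrocyte genes is in this section. Of 122 genes examined (the 10 and the wider lists), 5 moved by 0.32 or more on the log2 scale in opposite directions when the same gene was lost on the 2 backgrounds, a share of 4.1%, where 1.93% of all 13186 genes compared did so. The differences were not tested. Log2 differences are given first for the background that keeps the other glycosylase gene, then for the one that lacks it.

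On loss of Ogg1, Trpv4 stood at 1.77 and -0.91, Slco1c1 at 0.60 and -0.42, Slc7a10, a neutral amino acid transporter, at 0.37 and -0.49, Ezr, the membrane linker ezrin, at 0.33 and -0.43, and Psmb8 at -0.36 and 0.33. On loss of Mutyh, Trpv4 stood at 1.93 and -0.74, Slco1c1 at 0.68 and -0.35, and Slc7a10 at 0.42 and -0.44. For Trpv4, Slco1c1, Slc7a10 and Ezr the Ogg1 KO and Mutyh KO libraries were above both DKO and WT. Choroid plexus markers, at 0.515% of reads in Ogg1 KO, 0.533% in Mutyh KO, 0.267% in DKO and 0.0571% in WT, were also highest in the single knockouts, and their part was not tested. Psmb8 rested on 35 reads in Ogg1 KO and 54 in WT.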

How the results depend on the processing

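No paired analysis was possible because each genotype has 1 library, and for the same reason no library could be left out of a comparison. The count of astrocyte genes past the limit was 1 (Ogg1 KO against WT), 0 (Mutyh KO), 0 (DKO), 2 (DKO over Ogg1 KO) and 0 (DKO over Mutyh KO). At 1.1-fold it was 5, 5, 4, 5 and 1, where 44.2%, 41.5%, 38.6%, 39.8% and 28.4% of all genes compared passed. At 1.5-fold it was 0 for Ogg1 KO against WT and 0 for DKO against Ogg1 KO, where 2.23% and 1.59% of genes compared passed. At 2-fold it was again 0 for both, where 0.766% and 0.387% passed. With a pseudocount of 5 RPKM it was 1 for DKO against Ogg1 KO, since Gfap then fell short. Of 350 recomputed log2 ratios of single astrocyte genes none changed sign, and 11 moved by more than their counting interval, all of Slc1a2 or Glul under another scaling. Medians of the 10 genes moved by less than counting error in all 35 cases, and those of size up to 0.0093 changed sign under TMM or median-of-ratios scaling (Mutyh KO over WT, DKO over Mutyh KO). Scaling shifted the median of all genes by at most 0.03. Under some alternative, the median of the shared reactive list changed sign in 4 of 5 comparisons (size up to 0.095). That of the A1 list did so in 3 of 5 (up to 0.245) and that of the A2 list in 1 of 5 (0.187). Medians of the wider astrocyte and endfoot lists did so in 2 of 5 each, at sizes up to 0.0069 and 0.0104. The A1 list depends on weak genes: above 10 RPKM its median was -0.10 for Ogg1 KO, -0.05 for Mutyh KO and 0.02 for DKO, against 0.16, 0.24 and 0.31 with all genes compared. Aldh1l1 and Gjb6, the genes with the fewest reads, have the widest intervals.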

Other observations

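Of the S100 genes other than S100b and S100a1, several had another order of libraries. S100a4, a marker of fibroblasts and some blood cells, had 8 reads in Ogg1 KO, 12 in Mutyh KO, 24 in DKO and 6 in WT, and was 3.98-fold WT in DKO (1.59 to 11.9). S100a16, made by astrocytes among other cells, had 37.4 RPKM in Ogg1 KO, 30.6 in Mutyh KO, 32.9 in DKO and 30.2 in WT. S100a6 had 5.39, 4.95 and 5.73 RPKM for Ogg1 KO, Mutyh KO and DKO, against 6.76 in WT. S100a10 had 13.6 RPKM in Ogg1 KO, 12.6 in Mutyh KO, 16.3 in DKO and 12.9 in WT, and S100a11 had 12.9, 15.4, 14.3 and 10.7 RPKM in the same order. S100a13 had log2 ratios to WT of 0.23, -0.19 and 0.23. S100a9, a protein of neutrophils, had 0.241, 0.478 and 0.450 RPKM, against 1.47 in WT, and fell short of the mean needed for comparison.

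Sox9, a transcription factor of astrocytes, had 15.5 RPKM in Ogg1 KO, 20.6 in Mutyh KO, 16.7 in DKO and 17.9 in WT, so that Ogg1 KO was the lowest library and Mutyh KO the highest, as for S100b. It was picked for this likeness after its values were seen, and 4 libraries give only 4 points for it.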
